A study of Bombus terrestris with 16 samples.

Results

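Gut gene expression was compared between bumblebee workers (Bombus terrestris) exposed to genotype 075 of Crithidia bombi and control workers of the same colonies. The comparison used 8 of the 16 libraries of the study, 4 labelled 075 and 4 labelled control, with 1 of each from colonies K, L, S and T. The other 8 libraries came from workers of these colonies exposed to C. bombi genotypes 068 and 161. Every library held RNA pooled from the guts of 3 workers that were 7 d old and had been killed 18 h after exposure. The labels do not say what the control workers received. Because workers were pooled, the spread between workers was not measured, and each p-value rests on the spread between libraries.

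Crithidia bombi, a trypanosome, attaches to the gut wall of bumblebees and spreads by way of faeces, in the nest and on flowers. The gut epithelium of an insect digests and absorbs food, lies behind a layer of chitin and mucin-type proteins, and answers microbes through recognition receptors, the Toll, Imd and JAK/STAT pathways and reactive oxygen made by dual oxidase. Combinations of host colony and parasite genotype are known to differ in how well an infection establishes, and the study compared gene expression across such combinations.

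The 8 libraries held 8.47 M to 9.29 M counted reads, and 9394 to 9721 of the 10635 transcript records, called genes here, had at least 1 read. Values are CPM, read counts scaled to a common library total, and are listed in the order K, L, S and T unless a colony is named. Differences are log2 values for 075 minus control from a fit with colony and exposure as factors, given with a standard error (SE). A count of 3, the limit that a count of 0 allows, was worth 0.297 to 0.366 CPM in these libraries, which covers counting error only. The 6 most abundant genes by share of control reads held 4 digestive enzymes. An alpha-glucosidase that splits sucrose (XM_003402177.1) took 4.62% ± 0.977 of control reads and 5.24% ± 0.59 of 075 reads (SD, n = 4 each). A second alpha-glucosidase (XM_003395866.1) took 2.02% ± 0.139 and 2.44% ± 0.214. A trypsin (XM_003401003.1) took 1.69% ± 0.293 and 1.64% ± 0.334, and a carboxypeptidase A (XM_003402348.1) took 1.73% ± 0.277 and 1.51% ± 0.284. A pair of genes described as tripartite motif-containing protein 2/3 took 2.31% ± 0.571 and 1.9% ± 0.396 (XM_003393487.1), and 1.89% ± 0.277 and 1.74% ± 0.178 (XM_003402694.1). None of these 6 genes passed the test.

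No gene passed the test after genotype 075. The edgeR quasi-likelihood test called 0 of 8406 genes (0%) at a Benjamini-Hochberg adjusted p of 0.05, and the smallest adjusted p was 0.999. An unadjusted p under 0.05 was reached by 266 genes (3.16%), of which 112 (1.33%) were higher and 154 (1.83%) lower after 075. No call was made by limma-trend (0 genes), for which 283 (3.37%) had an unadjusted p under 0.05, or by edgeR on the 8 libraries alone (0 of 8093), for which 270 (3.34%) did. DESeq2 called 5 genes, 0.0595% of those tested, and gave 298 (3.55%) an unadjusted p under 0.05. In counts simulated for this comparison over 8299 genes, the share that edgeR recovered was 68% at a 2-fold change and 96% at a 4-fold change. False calls were 11 of 175 by edgeR and 23 of 199 by DESeq2. The simulated counts had no colony effect and no library that stood apart, and only genes averaging over 5 CPM were changed. Recovery in the real libraries, and for genes at lower levels, can therefore be lower than these shares. The direction was the same in all 4 colonies for 422 genes that were higher (5.02%) and 479 that were lower (5.7%). All 4 libraries of 075 lay above all 4 controls for 81 genes (0.964%) and below them for 99 (1.18%). With upper-quartile scaling these counts were 110 above and 68 below.

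The 5 genes that DESeq2 called were all higher after 075, in 4 of 4 colonies each, and 3 of them have a description with a score of at least 100. The gene with the smallest edgeR p (XM_003402909.1) is described by its enzyme class alone, the oxidoreductases that act on alcohols with NAD or NADP. Controls held 24.8, 27.7, 20.9 and 26.4 CPM of it, and the 075 libraries 46.3, 42.0, 75.2 and 45.9 CPM. The groups did not overlap, and the S library stood highest after 075. The log2 difference was 1.04 ± 0.21 (unadjusted p = 0.000242 by edgeR, adjusted p = 0.0152 by DESeq2). Gamma-glutamyl hydrolase (XM_003398756.1), which trims the glutamate tail of folates, was at 4.36, 2.90, 4.57 and 4.27 CPM in controls and at 8.72, 4.97, 26.6 and 17.2 CPM after 075. Its groups did not overlap either, with the largest gaps in colonies S and T. The log2 difference was 1.65 ± 0.37 (unadjusted p = 0.000588 by edgeR, adjusted p = 0.0206 by DESeq2).

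ATP-dependent RNA helicase A (XM_003398265.1), which unwinds double-stranded RNA and is known from Drosophila as the dosage compensation factor maleless, was the most abundant of the 5. Per gene length it averaged 143 RPKM in controls and 334 RPKM after 075, against 16.2 and 34.2 RPKM for the oxidoreductase XM_003402909.1. The controls held 527, 382, 406 and 205 CPM of the helicase, and the 075 libraries 1328, 578, 1329 and 418 CPM. Each colony was higher after 075, but the T library of 075 lay within the control range. The log2 difference was 1.19 ± 0.27 (unadjusted p = 0.00068 by edgeR, adjusted p = 0.018 by DESeq2). The fourth gene (XM_003397757.1) has only a weak hit to a delta8 fatty acid desaturase, below the score of 100 used for naming. It was at 0.594, 3.02, 0.744 and 1.22 CPM in controls and at 4.92, 5.44, 18.6 and 15.9 CPM after 075, without overlap, a log2 difference of 2.98 ± 0.73 (adjusted p = 0.0152 by DESeq2). The fifth gene (XM_003396598.1) has no description. It was at 0, 3.71, 0.851 and 0.244 CPM in controls and at 3.80, 4.26, 29.4 and 15.9 CPM after 075 (adjusted p = 0.012 by DESeq2).

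These calls depended on single libraries. Without the S 075 library DESeq2 called 0 genes, and without the T control it also called 0. Without the K control it called 49 genes, 47 of them higher after 075, and the 5 genes above were all among them. Without the L 075 library it called 17, again with all 5. edgeR called 0 genes whichever single library was left out. With 3 libraries left out together (the K control, S 075 and L 161), edgeR called 10 genes (0.119%) and DESeq2 45 (0.535%). Neither set held any of the 5. At an unadjusted p under 0.05 these fits held 915 (10.9%) and 820 genes (9.75%). No criterion for the choice of these 3 libraries was tested here. Leaving out the K control removes the highest control value of some of the genes called, so these calls are given as a description.

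Fatty acid enzymes and other metabolic genes were among the genes with the smallest p that were higher in every colony, without passing the test. Stearoyl-CoA desaturase (XM_003395098.1), which puts the first double bond into saturated fatty acids, was at 0.792, 2.32, 0.532 and 1.58 CPM in controls and at 1.901, 3.20, 11.4 and 9.46 CPM after 075. Its log2 difference was 2.11 ± 0.52 (unadjusted p = 0.00127), and the S and T libraries of 075 carried most of it. An elongase of very long chain fatty acids, ELOVL4 type (XM_003399574.1), was at 7.23, 12.8, 2.98 and 6.58 CPM in controls and at 12.7, 15.03, 54.3 and 40.8 CPM after 075, a log2 difference of 1.85 ± 0.61. Its groups overlapped, since the K library of 075 did not exceed the L control. Enoyl reductase (XM_003395458.1), which acts in the elongation cycle, was at 27.7, 33.4, 34.0 and 24.4 CPM in controls against 37.7, 45.9, 42.5 and 39.0 CPM, without overlap (log2 difference 0.47 ± 0.16). Cytosolic prostaglandin-E synthase (XM_003399587.1), known in vertebrates also as the HSP90 co-chaperone p23, was at 76.6, 68.5, 79.4 and 69.8 CPM against 96.0, 89.9, 88.2 and 92.9 CPM. The groups did not overlap, although the log2 difference was the smallest of these genes at 0.32 ± 0.10.

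The fatty acid synthesis list held 22 tested genes of 33 described, 13 higher and 9 lower after 075, with a median log2 difference of 0.09 against -0.01 over all genes tested. Of its members 4 were higher with an unadjusted p under 0.05 and 0 lower, against 1.33% and 1.83% of all genes tested, and none passed the test. One of these 4, an elongase of the ELOVL6 type (XM_003402651.1), was at 0 CPM in all 4 controls and reached 0.447, 0, 4.46 and 1.27 CPM after 075. Another ELOVL4 elongase (XM_003399454.1) was far more abundant, at 228, 322, 240 and 225 CPM in controls and 444, 405, 226 and 330 CPM after 075. It was higher in colonies K, L and T and lower in S (log2 difference 0.43 ± 0.19).

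Other genes among those with the smallest p that were higher in every colony have varied roles. Procollagen-lysine dioxygenase (XM_003401690.1), which hydroxylates lysines of collagen, was at 12.4, 10.8, 11.49 and 12.3 CPM in controls and at 18.8, 15.5, 17.5 and 22.9 CPM after 075. The groups did not overlap, and the 4 colonies moved by similar amounts (log2 difference 0.66 ± 0.19, unadjusted p = 0.00351). Prefoldin alpha (XM_003397580.1), a subunit of a chaperone for nascent actin and tubulin, was at 9.21, 5.34, 6.59 and 3.41 CPM against 13.6, 7.57, 9.58 and 9.78 CPM (log2 difference 0.76 ± 0.23). A chitinase (XM_003403128.1), an enzyme that cleaves chitin, was at 231, 239, 155 and 213 CPM in controls and 319, 241, 343 and 267 CPM after 075. Its ranges were apart by a small margin, because the L library of 075 sat just above the highest control (log2 difference 0.49 ± 0.16). N-acetylmuramoyl-L-alanine amidase (XM_003401893.1), the enzyme class that cuts bacterial peptidoglycan and to which insect peptidoglycan recognition proteins with amidase activity belong, was at 8.41, 8.002, 9.78 and 9.51 CPM against 12.2, 8.76, 30.3 and 14.1 CPM (log2 difference 0.77 ± 0.26). Kynurenine aminotransferase (XM_003393468.1), an enzyme of tryptophan breakdown, was at 8.22, 2.32, 2.55 and 0.244 CPM against 21.1, 4.02, 6.10 and 0.638 CPM, so that its level differed more between colonies than between exposures (log2 difference 1.13 ± 0.34).

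**Figure D1:**
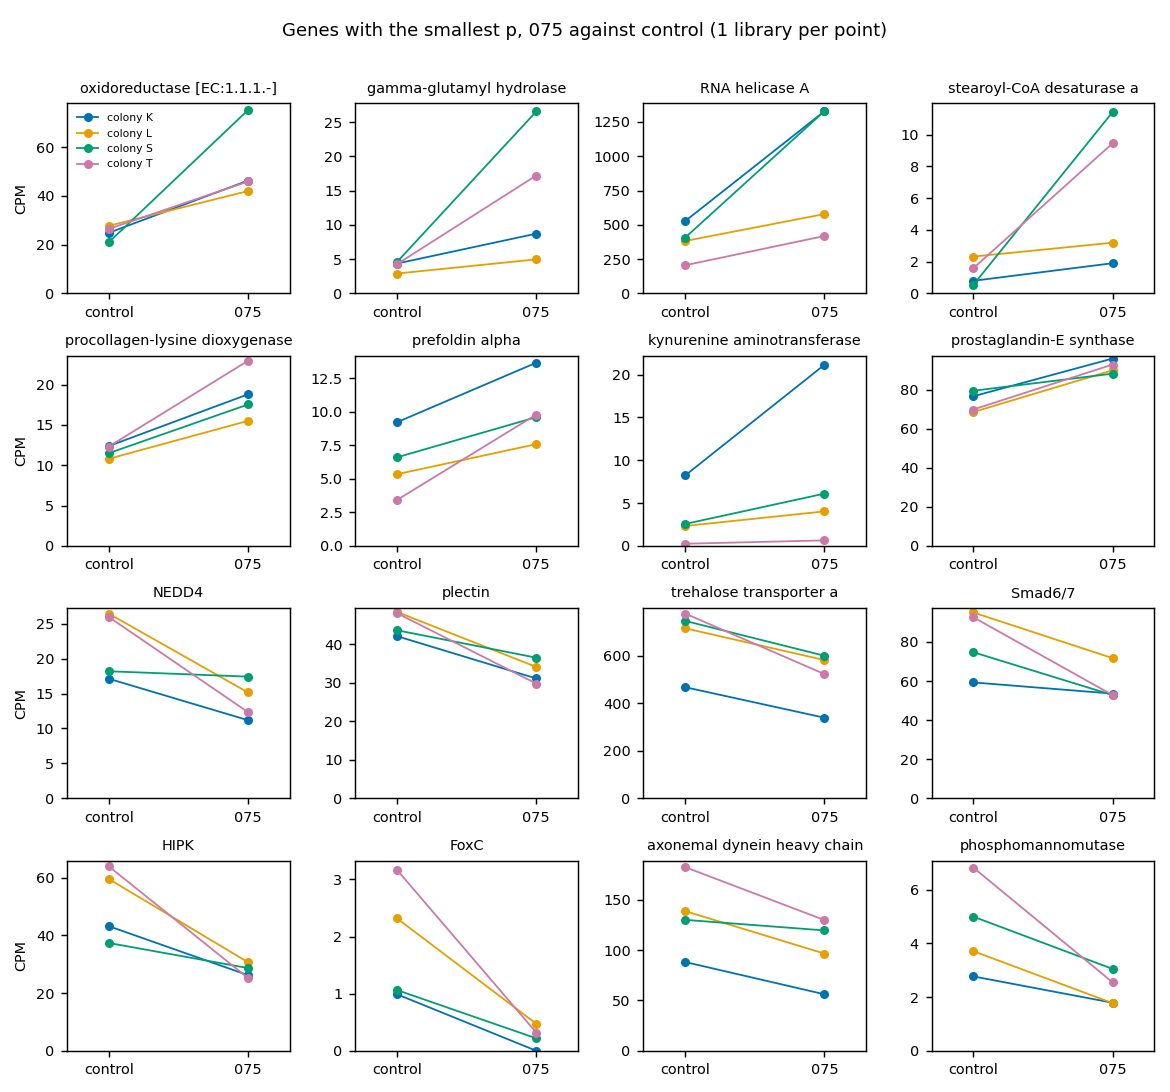
CPM (linear axis from 0) in each of the 8 libraries for the 8 described genes with the smallest p among those higher after 075 in every colony (upper 2 rows) and the 8 among those lower (lower 2 rows). Each line joins the control and 075 libraries of 1 colony. In gamma-glutamyl hydrolase and stearoyl-CoA desaturase the S and T lines are the steepest, while the lines of procollagen-lysine dioxygenase and plectin have similar slopes.

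The 12 described genes with the smallest p that were lower in every colony after 075 have varied roles, and none passed the test. The E3 ubiquitin ligase NEDD4 (XM_003393090.1), which marks membrane proteins for removal, was at 17.1, 26.4, 18.2 and 25.96 CPM in controls and at 11.2, 15.1, 17.4 and 12.3 CPM after 075. The difference was small in colony S, where the 075 value still exceeded the K control (log2 difference -0.65 ± 0.17, unadjusted p = 0.00189). Plectin (XM_003397024.1), a linker between cytoskeletal filaments, was at 42.1, 48.4, 43.6 and 48.0 CPM against 31.1, 34.1, 36.5 and 29.8 CPM, without overlap (log2 difference -0.47 ± 0.12). An axonemal-type dynein heavy chain (XM_003395900.1), a microtubule motor, was at 88.2, 139, 130 and 182 CPM against 56.1, 96.5, 120 and 130 CPM (log2 difference -0.45 ± 0.14). The inhibitory Smad, Smad6/7 (XM_003394954.1), which dampens signalling by bone morphogenetic proteins, was at 59.3, 95.1, 74.8 and 92.6 CPM against 53.6, 71.7, 52.8 and 52.8 CPM. Colony K showed the smallest gap for it, and the groups overlapped (log2 difference -0.46 ± 0.14).

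Of the same 12 genes, several are regulators, some of them at very low levels. Homeodomain-interacting protein kinase (XM_003393868.1), which in Drosophila promotes Notch and Wnt signalling, was at 43.2, 59.5, 37.3 and 63.9 CPM in controls and at 26.2, 30.6, 28.6 and 25.2 CPM after 075, without overlap (log2 difference -0.86 ± 0.26). A Krueppel-like factor (XM_003399894.1) was at 9.997, 13.9, 13.0 and 12.3 CPM against 7.04, 8.99, 8.93 and 6.16 CPM, again without overlap. The chromatin remodelling ATPase SMARCA2/4 (XM_003398737.1) was at 2.77, 3.02, 1.49 and 1.95 CPM against 0.447, 0.947, 1.42 and 1.06 CPM. Forkhead box protein C (XM_003398850.1) was at 0.99, 2.32, 1.06 and 3.17 CPM against 0, 0.473, 0.218 and 0.319 CPM, near the limit of a count of 3. These low values rest on a handful of reads per library, and the ranges of both genes were apart.

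The remaining 4 of the 12 are transporters and enzymes. A facilitated trehalose transporter (XM_003402640.1), which carries trehalose, the blood sugar of insects, across membranes, was at 468, 716, 747 and 778 CPM in controls and at 339, 582, 600 and 523 CPM after 075. Each colony was lower by a similar factor, while the groups overlapped because colony K was low in both (log2 difference -0.41 ± 0.12, unadjusted p = 0.00401). A phospholipid-translocating ATPase (XM_003396053.1), which moves lipids between membrane leaflets, was at 112, 146, 116 and 138 CPM against 88.7, 93.2, 108 and 95.9 CPM, without overlap. Phosphomannomutase (XM_003399117.1), which supplies mannose for glycosylation, was at 2.77, 3.71, 4.998 and 6.83 CPM against 1.79, 1.77, 3.05 and 2.55 CPM. A tRNA pseudouridine synthase (XM_003398686.1) was at 35.8, 25.9, 20.1 and 25.1 CPM against 22.5, 16.6, 18.5 and 18.5 CPM. Both of these overlapped between the groups.

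The 075 libraries were next compared with the 8 libraries of genotypes 068 and 161, a contrast that uses no control library. edgeR called 0 of 8406 genes (0%), with a smallest adjusted p of 0.987 and 198 genes (2.36%) at an unadjusted p under 0.05, and DESeq2 called 0 with 225 (2.68%). Of the genes named so far, the 2 first in order had averages between control and 075 in the other genotypes. The oxidoreductase XM_003402909.1 averaged 24.99 ± 2.94 CPM in controls, 52.4 ± 15.4 after 075 (n = 4 each) and 34.8 ± 8.21 after the other genotypes (SD, n = 8). Gamma-glutamyl hydrolase (XM_003398756.1) averaged 4.02 ± 0.76, 14.4 ± 9.61 and 6.66 ± 3.05 CPM. Their log2 differences between 075 and the other genotypes were 0.59 (unadjusted p = 0.00498) and 1.01 (unadjusted p = 0.00495). These p-values reuse the 075 libraries on which the genes were picked for standing high against control, so they are no independent support. Plectin (XM_003397024.1) averaged 45.5 ± 3.16, 32.9 ± 3.02 and 39.4 ± 6.12 CPM in the same order, and prostaglandin-E synthase (XM_003399587.1) 73.6 ± 5.26, 91.7 ± 3.41 and 87.4 ± 6.16 CPM.

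The 4 colonies differed from each other in what separated their 075 library from their control. At least 2-fold higher values after 075 were found for 201 genes in K, 304 in L, 682 in S and 556 in T, and at least 2-fold lower values for 724, 236, 169 and 265 genes. With 1 library per colony and exposure these are descriptions with no replicate check. Across the 8406 genes, Pearson's r was 0.46 between the differences of S and T, while Spearman's rho was 0.08, so that the most changed genes and not the ranks of all genes went together. Between K and S both were negative (r = -0.54, rho = -0.35), as between K and T (r = -0.29, rho = -0.17). Colony L had r = 0.16 and rho = 0.24 with T, the highest rho of the pairs, r = 0.03 and rho = 0.08 with K, and r = 0.01 and rho = -0.03 with S. Genes are not independent replicates, and no test was made of these coefficients. More than 2-fold lower in K and more than 2-fold higher in S were 363 genes, and 265 genes were more than 2-fold higher in both S and T.

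**Figure D2:**
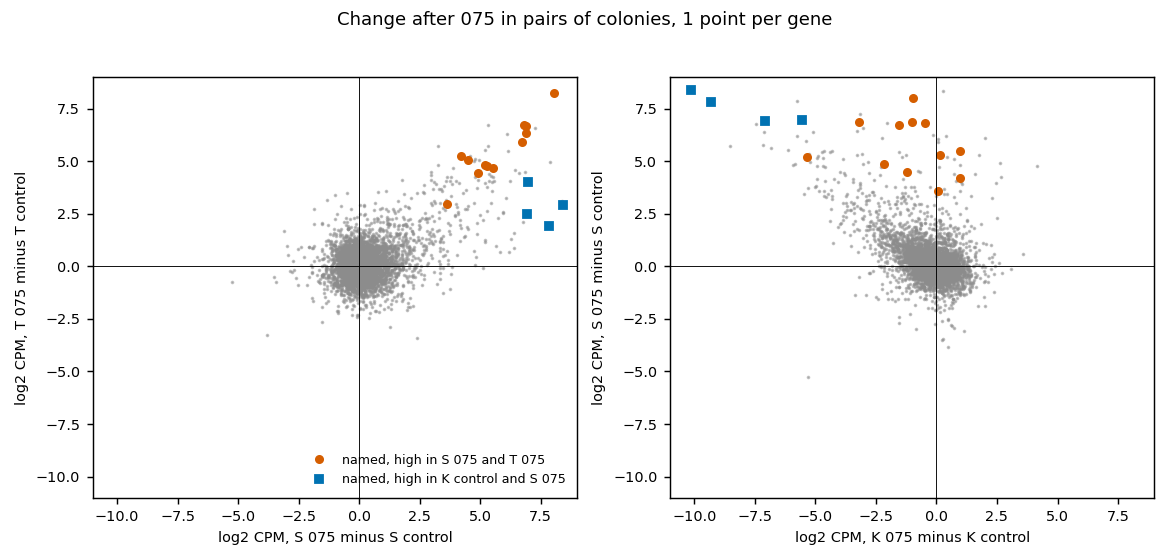
Difference in log2 CPM between the 075 and control libraries of a colony, 1 point per gene (8406 genes), for S against T (left) and K against S (right). Most genes lie near 0, a tail of genes is higher in both S and T, and many of these are lower after 075 in K. Coloured symbols are the named genes that were high in S 075 and T 075 (circles) or in K control and S 075 (squares).

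A group of 118 genes (1.4% of those tested) was over 2 log2 units higher after 075 in both S and T, while 1 gene (0.0119%) was as much lower. The group was chosen on these differences, so they are given as a description. Of the 118 genes 63 are described. In colony K the order was turned for most of them, with the control above 075 for 94 genes and over 4 times as high for 60. In L the 075 library was over 4 times the control for 5 genes. The median level of the 118 genes was 15.2, 0.464, 0.319 and 0.244 CPM in the K, L, S and T controls and 2.12, 0.71, 14.0 and 6.48 CPM after 075. In the other exposures it was 6.53 and 5.2 CPM in S after 068 and 161, 3.13 and 0.671 CPM in T, and 0.683 and 0.502 CPM in K. At most 3 reads were counted for 60 of the 118 genes in the S control, 63 in the T control and 4 in the K control. The count was 0 in S 075 and T 075, which was fixed by how the group was chosen.

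Some genes of this group, picked after their values were seen, show the pattern library by library. The oo18 RNA-binding protein (XM_003395055.1), which in Drosophila controls translation in the oocyte and in neurons, was at 356, 0.928, 0.213 and 0.61 CPM in controls and at 182, 0.473, 114 and 257 CPM after 075. It was high in both libraries of K, near 0 in both of L, and in S and T high after 075 and near 0 in the control. A HoxA/B/D3 homeobox protein (XM_003402127.1) was at 52.0, 0, 0 and 0.244 CPM against 17.6, 0.118, 23.4 and 28.3 CPM, and an Antp family homeobox protein (XM_003402146.1) at 70.7, 1.28, 0.957 and 1.58 CPM against 15.8, 2.01, 35.1 and 39.3 CPM. Low density lipoprotein receptor-related protein 2 (XM_003402655.1), an endocytic receptor of absorptive epithelia in mammals, was at 74.3, 0, 0 and 0 CPM against 7.83, 0, 26.7 and 18.0 CPM. Inositol oxygenase (XM_003393629.1), which opens the ring of myo-inositol, was at 92.4, 3.60, 0.957 and 0.975 CPM against 45.7, 1.302, 139 and 123 CPM. A glucuronosyltransferase (XM_003392972.1), an enzyme of conjugation, was at 16.1, 0, 0 and 0 CPM against 11.52, 0, 25.3 and 23.6 CPM. In all 6 genes the L libraries stayed low in both exposures.

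Toll-like receptor 3 (XM_003395506.1), named after a mammalian sensor of double-stranded RNA, was at 95.2, 3.25, 7.13 and 3.17 CPM in controls and at 40.4, 4.38, 167 and 114 CPM after 075. Its log2 difference over the 4 colonies was 0.96 ± 1.35, an error larger than the difference. Among genes of lipid and xenobiotic metabolism, a family 4 cytochrome P450 (XM_003399563.1), a family that hydroxylates fatty acids and other substrates, was at 365, 286, 62.2 and 44.1 CPM against 407, 307, 2452 and 1208 CPM. A second stearoyl-CoA desaturase (XM_003395099.1) was at 36.4, 35.8, 9.36 and 14.8 CPM against 38.1, 31.4, 117 and 115 CPM, and fatty acyl-CoA reductase (XM_003399896.1), which makes fatty alcohols, at 1.39, 1.62, 0.638 and 0 CPM against 2.91, 2.96, 15.6 and 8.29 CPM. These lipid genes were not turned in colony K, where control and 075 were close together or 075 was the higher. The receptor Notch (XM_003401522.1) was at 2.47, 9.74, 2.87 and 1.83 CPM against 5.03, 3.90, 89.1 and 27.0 CPM, and was lower after 075 in L. A record with a weak hit to a calcium-activated chloride channel (XM_003394813.1) was at 2.08, 3.25, 1.28 and 0.975 CPM against 4.25, 6.51, 68.2 and 30.7 CPM, higher in each colony.

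A set of transporters and biosynthetic enzymes had its 2 highest levels in K control and S 075 libraries and low levels elsewhere in the comparison. A sugar transporter (XM_003400472.1) was at 256, 0.348, 0.106 and 0 CPM in controls and at 0, 0.71, 113 and 1.49 CPM after 075, and the record beside it in accession order, a facilitated trehalose transporter (XM_003400471.1), at 141, 0.116, 0 and 0 CPM against 0, 0.118, 51.2 and 0.638 CPM. CYP15A1 (XM_003396659.1), known in insects as the epoxidase of juvenile hormone synthesis, was at 60.6, 0, 0 and 0 CPM against 0.224, 0.828, 26.9 and 1.06 CPM. Aromatic L-amino acid decarboxylase (XM_003394181.1), which makes dopamine and serotonin, was at 109, 0.232, 0 and 0 CPM against 2.13, 0.947, 28.1 and 3.40 CPM. 15-hydroxyprostaglandin dehydrogenase (XM_003398287.1), which inactivates prostaglandins, was at 72.6, 0.928, 0.851 and 0 CPM against 1.57, 1.42, 39.5 and 6.27 CPM. Juvenile hormone esterase (XM_003397252.1), which degrades the hormone, was at 3.07, 5.92, 0.213 and 1.22 CPM against 3.80, 0.947, 145 and 12.4 CPM, high in S 075 but not in the K control.

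Hormone and prostaglandin enzymes were among the genes called once libraries were left out. Ecdysteroid 2-hydroxylase (XM_003394564.1), in Drosophila an enzyme of ecdysone synthesis encoded by shadow, was at 92.9, 0.232, 1.28 and 0.244 CPM in controls and at 2.80, 0.947, 41.6 and 8.82 CPM after 075. Over all libraries its log2 difference by edgeR was -0.41 ± 1.96, and without the K control that by DESeq2 was 4.60 ± 0.75 (adjusted p = 4.14e-06). A second CYP15A1 record (XM_003396620.1), at 19.99, 0.232, 0.851 and 0.488 CPM against 2.68, 0.71, 11.2 and 8.29 CPM, had 0.38 ± 1.34 by edgeR over all libraries and 3.64 ± 0.69 by DESeq2 without the K control (adjusted p = 0.000159). Prostaglandin-H2 D-isomerase (XM_003395027.1), which makes prostaglandin D2, was at 5.34, 0.232, 0.319 and 0.244 CPM against 5.82, 0.828, 14.2 and 14.8 CPM, and forkhead box protein L (XM_003403085.1) at 8.22, 0, 0 and 0 CPM against 2.68, 0.237, 9.58 and 4.25 CPM. In each of these 4 genes the K control exceeded all other controls. The 2-hydroxylase, this CYP15A1 record and the D-isomerase were among the 10 genes that edgeR called with the 3 libraries left out. These genes were chosen after their values were seen. Leaving out the K control removes their highest control value, so the adjusted p-values without it are no independent support.

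**Figure D3:**
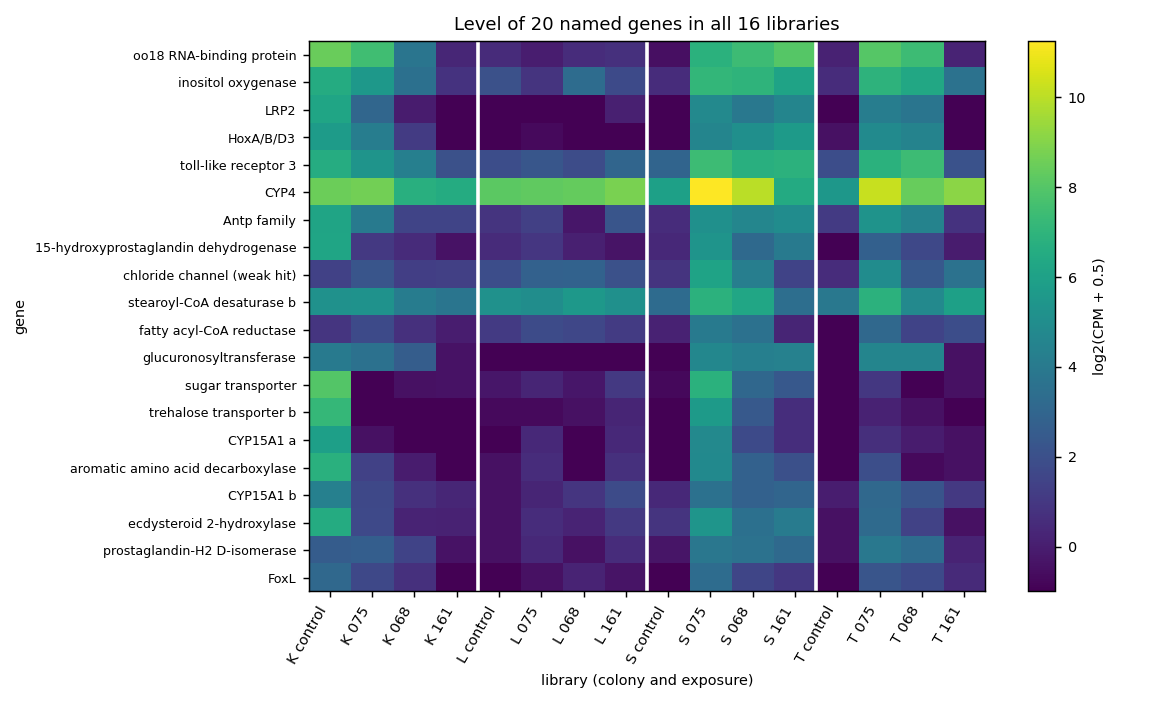
Level of 20 named genes, as log2(CPM + 0.5) from dark (low) to bright (high), in all 16 libraries grouped by colony. The K control and S 075 are bright for most of the genes. K 075, the other exposed libraries of S, and T after 075 and 068 are bright for some genes and intermediate or dark for others. The 4 libraries of L are dark for most, and the transporters are bright mainly in K control and S 075.

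Homeobox-type transcription factors were counted in each library. Of 79 such genes described, a list written after values were seen, 41 passed the filter on low counts, which keeps a gene through the libraries where it is high and so partly fixes the counts that follow. Of these 41, the number with over 3 reads was 41 for K control and T 075 libraries, and 40 for K 075 and S 075. In the L, S and T controls the number was 35, 34 and 35, and in L 075 it was 34. In the other exposures it was 41 in S 068, S 161 and T 068 and 32 to 37 in the remaining libraries. The summed level did not follow these counts, with 677, 722, 504 and 673 CPM in controls and 527, 541, 556 and 618 CPM after 075. In bulk RNA, fewer cells of a type and less RNA per cell cannot be told apart, nor can a tissue that was taken along with some guts and not others. Its part in the differences of S, T and K was not tested.

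Genes of cell division were lower after 075 in colony K and higher in S and T by their colony medians, and none passed the test. The list held 46 tested genes of 56 described, 21 higher and 25 lower after 075, with a median log2 difference of -0.03 over the 4 colonies. Within colonies the median difference was -0.78 in K, 0.07 in L, 0.45 in S and 0.51 in T. The median level was 16.1, 5.16, 5.48 and 4.94 CPM in controls and 6.54, 5.62, 11.6 and 7.86 CPM after 075, so that the K control was the highest library and S 075 the next. After 068 it was 5.64, 4.58, 7.38 and 7.58 CPM, and after 161 it was 4.9, 3.66, 8.99 and 6.04 CPM. In K only the control stood high, and the 075 library was near those of the other genotypes. Cyclin B (XM_003398885.1), which drives entry into mitosis, was at 27.8, 4.18, 3.83 and 4.14 CPM against 5.03, 2.72, 13.5 and 4.68 CPM. Polo-like kinase 1 (XM_003399031.1), a mitotic kinase, was at 32.5, 6.03, 5.32 and 2.92 CPM against 4.70, 4.73, 20.6 and 8.61 CPM, and a kinesin of the family 4/7/21/27 (XM_003397624.1) at 48.8, 1.86, 4.25 and 3.66 CPM against 3.35, 4.62, 26.9 and 9.56 CPM. The checkpoint protein MAD1 (XM_003397339.1) was the member with the smallest p, higher in each colony at 1.88, 0.928, 0.851 and 0.366 CPM against 2.46, 1.77, 2.18 and 2.44 CPM.

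More protein synthesis and energy genes stood higher than lower after 075, by small amounts that differed between colonies. Of 95 cytosolic ribosomal protein genes tested, 77 were higher and 18 lower, with a median log2 difference of 0.12, against 4001 higher and 4405 lower over all genes. None passed the test, 2 were higher with an unadjusted p under 0.05 (1.33% of all genes tested were), and the medians by colony were 0.13 in K, 0.36 in L, 0.08 in S and -0.06 in T. Their summed level was 21330, 22620, 22290 and 23900 CPM in controls and 23780, 28060, 23320 and 22660 CPM after 075, and L 075 stood highest. The member with the smallest p, a low-level record of L13e (XM_003400699.1), was at 0.594, 0.928, 0.638 and 0.731 CPM against 1.34, 1.89, 1.20 and 1.70 CPM. Mitochondrial energy genes were 46 higher and 16 lower of 62, with a median of 0.09 and colony medians of 0.11, 0.32, -0.04 and -0.08. Among them, core subunit 2 of ubiquinol-cytochrome c reductase (XM_003400319.1) had the smallest p, with 85.1 ± 6.57 CPM in controls and 97.6 ± 10.2 after 075 (SD, n = 4). Both lists had their largest median in colony L and a negative one in T. Proteasome genes were 22 higher and 9 lower of 31 with a median of 0.05, and the regulatory subunit N6 (XM_003400120.1) was at 96.4 ± 4.76 against 110 ± 5.03 CPM without overlap.

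Chaperones and secretory pathway genes had a negative median in S and positive medians in K, L and T. Of 49 chaperone genes tested, 30 were higher and 19 lower, with a median of 0.07 and colony medians of 0.13, 0.06, -0.14 and 0.23. A chaperone described as HtpG, the bacterial name of the HSP90 family (XM_003396849.1), was at 563, 203, 414 and 66.9 CPM in controls and at 1762, 250, 210 and 713 CPM after 075. It was several times higher in K and T and lower in S. The same record was at 768, 761, 706 and 635 CPM after 068 and at 285, 313, 503 and 432 CPM after 161. The T control was thus below every other library, and the gap in T was not particular to 075. A second HtpG record (XM_003393081.1) was at 151, 121, 161 and 45.2 CPM against 418, 107, 80.9 and 220 CPM, and HSP90 beta (XM_003401877.1) at 184, 171, 278 and 110 CPM against 520, 200, 162 and 297 CPM. HSP70 protein 5 (XM_003394262.1), the main chaperone of the endoplasmic reticulum, was at 277, 268, 413 and 184 CPM against 729, 331, 246 and 430 CPM. These 4 genes, picked after their values were seen, all showed K and T higher and S lower. The member with the smallest p was a DnaJ protein, subfamily C member 5 (XM_003399391.1), lower in K, L and T and higher in S. The secretory pathway list had 30 higher and 12 lower of 42, with a median of 0.09 and colony medians of 0.25, 0.20, -0.15 and 0.16. Protein disulfide-isomerase A6 (XM_003398355.1), which forms disulfide bonds in new proteins, was its member with the smallest p, at 38.6, 23.9, 44.9 and 20.6 CPM against 67.1, 38.9, 37.7 and 47.9 CPM.

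**Figure D4:**
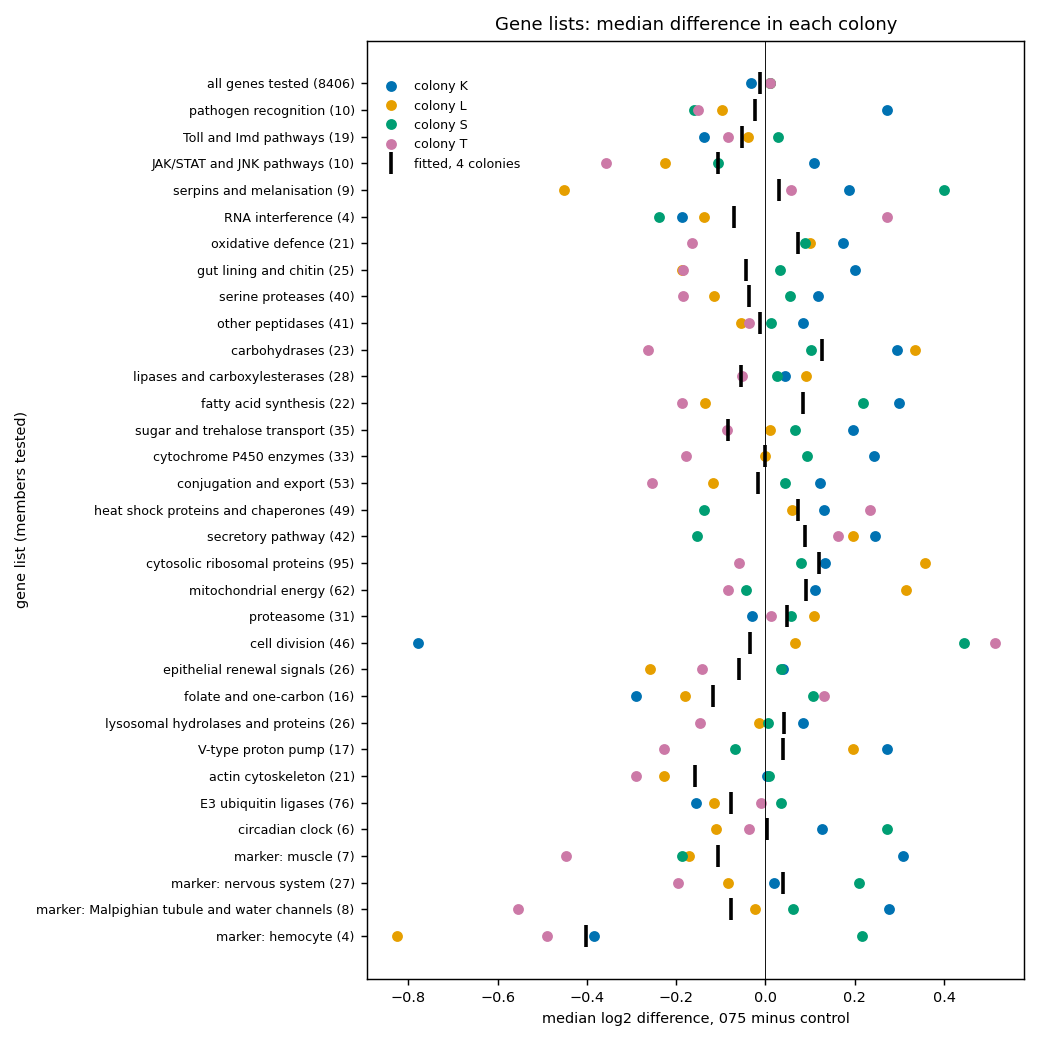
Median log2 difference between 075 and control of the gene lists with at least 4 tested members, for each colony (circles) and for the fit over the 4 colonies (black bars); the number of tested genes is in brackets. Cell division spreads the widest, from -0.78 in K to 0.51 in T, while the lists of ribosomal and mitochondrial energy genes are highest in L.

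Digestive enzymes showed gene-by-gene differences and no shared direction for proteases. Serine proteases were 19 higher and 21 lower of 40, with a median of -0.04, and other peptidases 20 higher and 21 lower of 41, with a median of -0.01. A trypsin (XM_003402867.1), which cuts proteins in the gut lumen, was the serine protease with the smallest p and was lower in each colony, at 1060, 2557, 1158 and 1586 CPM in controls and 767, 1355, 1039 and 884 CPM after 075 (log2 difference -0.63 ± 0.23). Carboxypeptidase A4 (XM_003400057.1) was at 2.47, 4.29, 1.70 and 7.19 CPM against 1.79, 2.25, 1.42 and 2.98 CPM. Several records described as transmembrane protease serine 9 moved apart from each other. One (XM_003395038.1) was at 17.6, 83.7, 8.401 and 5.36 CPM in controls and at 0.224, 10.9, 0 and 3.08 CPM after 075, lower in each colony, and another (XM_003395036.1) at 36.9, 84.9, 26.7 and 38.4 CPM against 10.3, 18.6, 8.93 and 29.2 CPM. A further record (XM_003395033.1) was higher after 075 in K, L and T, at 1.19, 0.232, 47.8 and 85.6 CPM against 7.04, 17.8, 20.7 and 156 CPM. XM_003395034.1 was higher in K and L, at 0.495, 10.3, 19.4 and 18.0 CPM against 0.895, 54.6, 2.50 and 15.7 CPM, while XM_003395035.1 was lower in each colony, at 304, 299, 222 and 390 CPM against 122, 285, 76.0 and 283 CPM. Records of near-identical genes can share reads, so their separate levels are uncertain.

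Carbohydrases were 15 higher and 8 lower of 23, with a median of 0.13 and colony medians of 0.29, 0.33, 0.10 and -0.26. Trehalase (XM_003400805.1), which splits trehalose into glucose, had the smallest p of the list, at 3776, 3297, 3593 and 4163 CPM in controls and at 7136, 5444, 5788 and 3468 CPM after 075. It was higher in K, L and S and lower in T (log2 difference 0.53 ± 0.18, unadjusted p = 0.0115). The libraries of 068 and 161 averaged 5684 ± 592 CPM (SD, n = 8), and the 075 libraries did not stand above them (log2 difference -0.08, unadjusted p = 0.624). A second trehalase (XM_003393639.1) was at 304 ± 23.1 CPM in controls and 271 ± 43.3 after 075. Lactase-phlorizin hydrolase (XM_003402875.1), a beta-glycosidase, was at 906, 245, 622 and 1157 CPM against 1350, 1401, 793 and 690 CPM, with its largest gap in L. Lipases and carboxylesterases were 13 higher and 15 lower of 28 (median -0.05), and the member with the smallest p, a lipase (XM_003398386.1), was at 219 ± 33.7 against 188 ± 52.5 CPM. Phospholipase A2 (XM_003400283.1), which releases fatty acids from phospholipids, was at 89.5, 55.9, 381 and 1531 CPM against 362, 276, 379 and 818 CPM, higher in K and L and lower in T.

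Transport, detoxification and lysosomal lists had medians from -0.08 to 0.07, and none of their genes passed the test. Sugar and trehalose transporters were 14 higher and 21 lower of 35, with a median of -0.08. A glucose transporter of the SLC2A8 type (XM_003401198.1) was higher in each colony at a low level, at 1.58, 1.16, 0.851 and 0.488 CPM against 3.58, 3.08, 1.52 and 1.91 CPM (log2 difference 1.26 ± 0.52). Cytochrome P450 enzymes were 16 higher and 17 lower of 33, and a family 6 member (XM_003393800.1) was at 0.594, 0.928, 0.425 and 0 CPM against 1.34, 5.32, 1.74 and 1.17 CPM without overlap. Conjugation and export genes were 23 higher and 30 lower of 53, with a median of -0.02. Their member with the smallest p, the exporter ABCC4 (XM_003395840.1), was at 29.5, 23.9, 39.2 and 25.4 CPM against 23.8, 15.7, 25.3 and 17.2 CPM. The 068 and 161 libraries averaged 29.8 ± 7.55 CPM of it (SD, n = 8), close to the control mean of 29.5 CPM, and the 075 libraries were lower than these by 0.53 on the log2 scale, without passing the test (unadjusted p = 0.00593, from the 075 libraries on which it was picked). Lysosomal genes were 14 higher and 12 lower of 26, and Niemann-Pick C1 (XM_003399314.1), which exports cholesterol from lysosomes, was at 368 ± 54.5 against 289 ± 27.4 CPM. Subunits of the V-type proton pump were 12 higher and 5 lower of 17, with a median of 0.04, and the proteolipid subunit (XM_003402801.1) was at 68.9 ± 15.2 against 59.8 ± 1.89 CPM. Oxidative defence genes were 15 higher and 6 lower of 21, with a median of 0.07, and glutathione peroxidase (XM_003393059.1) was at 4.03 ± 1.12 against 5.51 ± 1.57 CPM. Folate and one-carbon genes, the list that holds gamma-glutamyl hydrolase, were 6 higher and 10 lower of 16, with a median of -0.12.

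Immune genes gave no call. Among recognition genes 5 were higher and 5 lower of 10, and a class B scavenger receptor (XM_003402466.1), a lipid and pathogen receptor, was at 1.39, 1.28, 1.28 and 1.22 CPM in controls and at 2.57, 3.43, 11.8 and 2.87 CPM after 075. Its groups did not overlap, and S 075 stood far above the rest (log2 difference 1.77 ± 0.62, unadjusted p = 0.0133). Toll and Imd pathway genes were 6 higher and 13 lower of 19 (median -0.05), and the deubiquitinase CYLD (XM_003399312.1), a brake on these pathways, was at 36.1 ± 2.36 against 30.7 ± 4.91 CPM. JAK/STAT and JNK genes were 1 higher and 9 lower of 10 (median -0.11), with STAT5B (XM_003400983.1) at 153, 249, 183 and 221 CPM against 175, 199, 172 and 152 CPM, higher in K and lower in the other colonies. Lysozyme (XM_003400040.1), which cuts bacterial cell walls, was at 1253, 1246, 1594 and 1669 CPM against 1440, 1400, 1551 and 1126 CPM, with overlapping groups and a log2 difference of -0.06 ± 0.23. The dual oxidases were at 4.96 ± 2.13 against 4.37 ± 0.988 CPM (XM_003394502.1) and at 1.92 ± 0.795 against 1.81 ± 0.52 CPM (XM_003400429.1).

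Serpins and melanisation genes were 6 higher and 3 lower of 9, and serpin B5 (XM_003392985.1) was at 16.6 ± 2.19 CPM in controls and 20.3 ± 4.85 after 075. One serpin B (XM_003399138.1), of a family that blocks serine proteases, was high in K control and S 075 libraries, at 83.8, 6.61, 7.13 and 3.66 CPM against 1.901, 2.72, 98.1 and 15.1 CPM. In RNA interference, where 1 gene was higher and 3 lower of 4, a Dicer (XM_003401907.1), which cuts double-stranded RNA, was at 30.3, 28.6, 19.2 and 32.3 CPM against 13.1, 16.8, 24.4 and 20.6 CPM, lower in K, L and T and higher in S (log2 difference -0.62 ± 0.26). The other Dicer (XM_003394773.1) was at 92.4 ± 31.8 against 92.0 ± 14.8 CPM. Gut lining and chitin genes were 11 higher and 14 lower of 25, and mucin 5B (XM_003399573.1), a gel-forming mucin, was lower in each colony without overlap, at 65.3, 78.3, 54.1 and 69.1 CPM against 44.1, 52.8, 39.96 and 45.7 CPM (log2 difference -0.55 ± 0.23, unadjusted p = 0.0332).

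More genes of the actin cytoskeleton, E3 ligase and epithelial renewal lists stood lower than higher, and none passed the test. Of 21 actin cytoskeleton genes 3 were higher and 18 lower, with a median of -0.16 and colony medians of 0.00, -0.23, 0.01 and -0.29, with the negative medians in L and T. Alpha-actinin (XM_003396890.1), which cross-links actin, was at 130, 215, 165 and 232 CPM in controls and at 140, 147, 166 and 137 CPM after 075. E3 ubiquitin ligases were 26 higher and 50 lower of 76, with a median of -0.08, and 4 of them, NEDD4 among these, were lower with an unadjusted p under 0.05, against 1.83% of all genes tested. Epithelial renewal signals were 9 higher and 17 lower of 26, with a median of -0.06. Circadian clock genes were 3 higher and 3 lower of 6, and timeless (XM_003394988.1), whose protein partners period in Drosophila, was at 1.78, 1.39, 0.744 and 0.488 CPM against 1.901, 2.01, 1.96 and 2.76 CPM.

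Markers of tissues that can be taken along with a gut differed between colonies, and none passed the test. Muscle markers were 2 higher and 5 lower of 7, with colony medians of 0.31, -0.17, -0.19 and -0.45, and their summed level ran from 1637 to 2983 CPM in controls and from 1833 to 2208 CPM after 075. Hemocyte markers were 0 higher and 4 lower of 4, with a summed level of 101 to 181 CPM in controls and 76.1 to 114 CPM after 075. Integrin alpha 8 (XM_003400092.1) had the smallest p of these, at 94.8, 104, 75.3 and 142 CPM against 77.8, 57.5, 84.7 and 82.5 CPM. It made up most of the summed level in each of these libraries, so the sum mainly follows this record and not the list. Markers of Malpighian tubules and water channels were 2 higher and 6 lower of 8, with sums of 1146 to 1322 CPM against 1124 to 1467 CPM. Their member with the smallest p, an aquaporin-type record (XM_003403116.1), was at 535 ± 51.7 against 479 ± 38.3 CPM. Nervous system markers were 15 higher and 12 lower of 27, with sums of 604 to 730 CPM against 588 to 641 CPM. Titin (XM_003398808.1) and a calcium channel subunit (XM_003398720.1), the muscle and nervous system markers with the smallest p, stood below 3 CPM in every library of the comparison. No described gene matched the description patterns of the germ line and fat body lists, which were not analysed here. Such patterns can miss genes described under other names, so the empty lists do not show that these tissues were absent. The part of these tissues in the differences between 075 and control was not tested.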

How the data were processed

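Poly(A) RNA was primed with random hexamers and sequenced on an Illumina HiSeq instrument, per the labels' protocols. TopHat 1.9 is named in the submitters' processing notes, while the counting program, genome build and strand setting are not given in the sources used here. The authors deposited a read count and an RPKM value (count per gene length and library total) for 10635 transcript records in 16 libraries, per the file headers. In 16 of 16 libraries the counts summed to the deposited total. The deposited hit score of each KEGG description was used to name genes at a minimum of 100 (6569 of 8120 described records). Of all records 5155 matched a RefSeq symbol and 450 shared one. The 16 coverage columns were not used.

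The quasi-likelihood F-test of edgeR 4.0.16 (R 4.3.3) was applied to the counts of all 16 libraries, after TMM scaling and filterByExpr (8406 genes kept), with colony and exposure as factors. The fit left 9 residual degrees of freedom, and its common dispersion corresponds to a biological coefficient of variation of 0.282. The contrasts were 075 against control and 075 against the mean of 068 and 161. Colony in the labels pairs the libraries, and the deviations of control and 075 libraries from their group means correlated across genes at -0.104 in K, 0.413 in L, -0.298 in S and 0.002 in T. DESeq2 1.42.0, limma-trend (limma 3.58.1), other scalings, filters, the 8 libraries alone, no block and left-out libraries were alternatives. The fits were tested on simulated counts. Log2 CPM used a prior count of 2, and RPKM was used only to compare levels between genes.

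Genes named were the 12 described genes with the smallest p in each direction that agreed in 4 of 4 colonies, the member of each list with the smallest p, calls of DESeq2, the 6 largest shares in controls, and lysozyme, trehalases, Dicers and dual oxidases. Genes named for the pattern of single colonies, for calls with libraries left out, or beside a list's member of smallest p were chosen with their values in view. The comparison, lists and rule were chosen with earlier results of these data known. No test was made of a list as a whole, and its counts and median are descriptions only.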

Additional observations from a re-analysis of the deposited data

Results flagged for a closer look

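Of 192 groups of 4 libraries examined, 12 had 1 library far from the other 3, where chance flags about 1 in 20 groups. After 075, the S library stood far above the others for the oxidoreductase XM_003402909.1 (75.2 CPM) and the scavenger receptor XM_003402466.1 (11.8 CPM). The L library of 075 stood far above the others for Smad6/7 (XM_003394954.1, 71.7 CPM) and the family 6 cytochrome P450 XM_003393800.1 (5.32 CPM). The T library of 075 did so for timeless (XM_003394988.1, 2.76 CPM) and the dual oxidase XM_003394502.1 (5.84 CPM).

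The K control stood far below the other controls for the alpha-glucosidase XM_003395866.1 (15800 CPM), the carboxypeptidase A XM_003402348.1 (11200 CPM), the proteasome subunit N6 (XM_003400120.1, 89.4 CPM) and the summed cytochrome P450 list (16000 CPM). It stood far above them for the summed cell division list (988 CPM). Among the 075 libraries the summed muscle markers were far lower in S (1830 CPM).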

How the results depend on the processing

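The count of 0 genes called by edgeR for 075 against control stayed at 0 under every alternative run except DESeq2 (5 genes) and the fit without the K control, S 075 and L 161 (10). The count of 5 by DESeq2 became 45 without these 3 libraries, and ran from 0 to 49 with single libraries of the comparison left out, an alternative chosen after seeing the data. For 075 against the other genotypes, edgeR and limma stayed at 0, and DESeq2 ran from 0 to 4. The edgeR fits with no replicate block called 0 genes, as did the main edgeR fit with the block. DESeq2 was not run without the block, so the dependence of its 5 calls on the block was not tested.

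Of the 63 genes named by the rule, 57 kept their direction in every alternative. The 6 others had differences near 0. With a library or colony left out, lysozyme XM_003400040.1 ran from -0.181 to 0.110, the alpha-glucosidase XM_003402177.1 from -0.001 to 0.364, the trypsin XM_003401003.1 from -0.215 to 0.038, the dual oxidases XM_003394502.1 from -0.458 to 0.080 and XM_003400429.1 from -0.281 to 0.253, and the Dicer XM_003394773.1 from -0.228 to 0.144. With quantile normalization lysozyme was at 0.004 and the trypsin at 0.036. Without the K control and S 075 the alpha-glucosidase was at -0.015 and XM_003400429.1 at 0.001, and without L 161 as well the alpha-glucosidase was at -0.024. With no replicate block the Dicer was at -0.006, or -0.007 on the 8 libraries alone. Of 825 list medians 15 moved by more than the SD between colonies. Medians near 0 changed sign with another scaling for the circadian, pathogen recognition, peptidase, P450, conjugation, cell division, lysosomal and lysozyme lists. The cause of these changes was not tested. Pools of 3 workers and 1 library per colony and exposure limit what single colonies can show, and records under a few CPM rest on few reads.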
